A study of Homo sapiens with 10 samples.

Results

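The aminoacyl-tRNA synthetase genes described here are 36 of the 19893 genes counted in Kuramochi cells, chosen from a fixed list of gene symbols and not by their measured values. The list holds 20 genes of cytosolic enzymes and 16 genes of mitochondrial enzymes, whose symbols all end in 2. Kuramochi is an established human high-grade serous ovarian cancer line, labelled epithelial and known from other work to carry a BRCA2 mutation, and all conditions derive from it. Cells were profiled by droplet single-cell RNA-seq with 10x Genomics 3′ v3.1 chemistry, after antibody hashtags had marked the condition of each cell. The only drug was olaparib, which blocks PARP enzymes that act in DNA repair. There were 5 conditions: persister cells (drug-naive cells kept for 9 days in olaparib) at 10 µM and at 320 µM, olaparib-resistant populations adapted to 10 µM and to 320 µM, and untreated drug-naive control cells. The labels do not say how long the adapted populations had been in the drug, or how many clones they held. Every library was a pool of all conditions, so condition and pool were read from the name of each cell, and counts were added up to 1 sum per condition and pool (10 sums, n = 2 per condition).

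Aminoacyl-tRNA synthetases join each amino acid to its transfer RNA, which makes them the step that feeds both cytosolic and mitochondrial protein synthesis. In the cytosol several of them sit in a multisynthetase complex, and many of their genes are known targets of ATF4, the transcription factor of the integrated stress response. WARS, the tryptophanyl enzyme, stands apart as a classical gene of the interferon-gamma response. Most mitochondrial enzymes have nuclear genes of their own, while GARS and KARS each give a cytosolic and a mitochondrial form and glutaminyl-tRNA in mitochondria is made through EARS2 and an amidotransferase.

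The sums held 3532281 to 23189583 UMIs (unique molecular identifiers, 1 per captured transcript), and the 10 µM persister sums were the shallowest, with 300 and 263 cells. Levels are CPM (UMIs per 1000000, after TMM scaling of each sum) and are given for pool 1 and then pool 2. A change is a log2 change fitted with edgeR, and a gene counts as changed when its Benjamini-Hochberg adjusted p over 13330 genes was under 0.05. All 36 synthetase genes passed the filter on low counts, and their smallest count in a sum was 7 UMIs, for MARS2 in 10 µM persister cells of pool 1. Epithelial markers (6 genes) summed to 3031 to 3721 UMIs per 1000000 in 10 µM persister, 2443 to 2496 in 320 µM persister, 2372 to 2427 in 10 µM adapted, 1061 to 1178 in 320 µM adapted and 4248 to 4340 in control cells. Most were of KRT8 and KRT18, with 28082 and 62198 of 94517 UMIs in control pool 1. CDH1 had 9 and 10 UMIs in control cells. EPCAM and KRT19 had 11.5 and 16.5 CPM in 10 µM adapted against 4.63 and 10.2 in control cells, while the other 4 markers were lower there. KRT19 had 44.1 CPM in 10 µM persister cells. Ribosomal protein genes took 13.0 and 13.9% of UMIs in 10 µM persister cells, 24.4 and 24.4% in 320 µM persister cells, 29.9 and 30.2% in 10 µM adapted cells, 34.5 and 34.6% in 320 µM adapted cells and 23.7 and 23.9% in control cells. The part of that shift in the synthetase values was not tested.

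The mitochondrial genes as a sum stood lower than control in every treated condition, and the cytosolic genes did not. Summed over the 16 mitochondrial genes, the level was 234 and 229 CPM in 10 µM persister, 266 and 272 in 320 µM persister, 270 and 259 in 10 µM adapted and 258 and 270 in 320 µM adapted cells, against 349 and 363 CPM in control cells. Every treated sum lay below both control sums. A sum weighs genes of high level most. IARS2 was the largest part, with 108 and 108 CPM in control cells and 46.9 to 90.6 CPM in the treated sums. The mitochondrial sum was not repeated without IARS2. Summed over the 20 cytosolic genes, the level was 1888 and 1830, 2352 and 2235, 1778 and 1697, and 2027 and 1975 CPM in the same order of treated conditions, against 1787 and 1726 CPM in control cells. The sums of 320 µM persister, 320 µM adapted and 10 µM persister cells lay above both control sums, and those of 10 µM adapted cells lay around them. Without WARS, the 10 µM persister sums of the other 19 genes were 1711 and 1634 CPM, against 1759 and 1699 CPM in control cells. The summed levels were not tested, because 0.333 is the smallest p that an exact two-sided permutation of 2 against 2 sums allows. In a sum, fewer cells with a transcript and less of it per cell cannot be told apart.

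**Figure D1:**
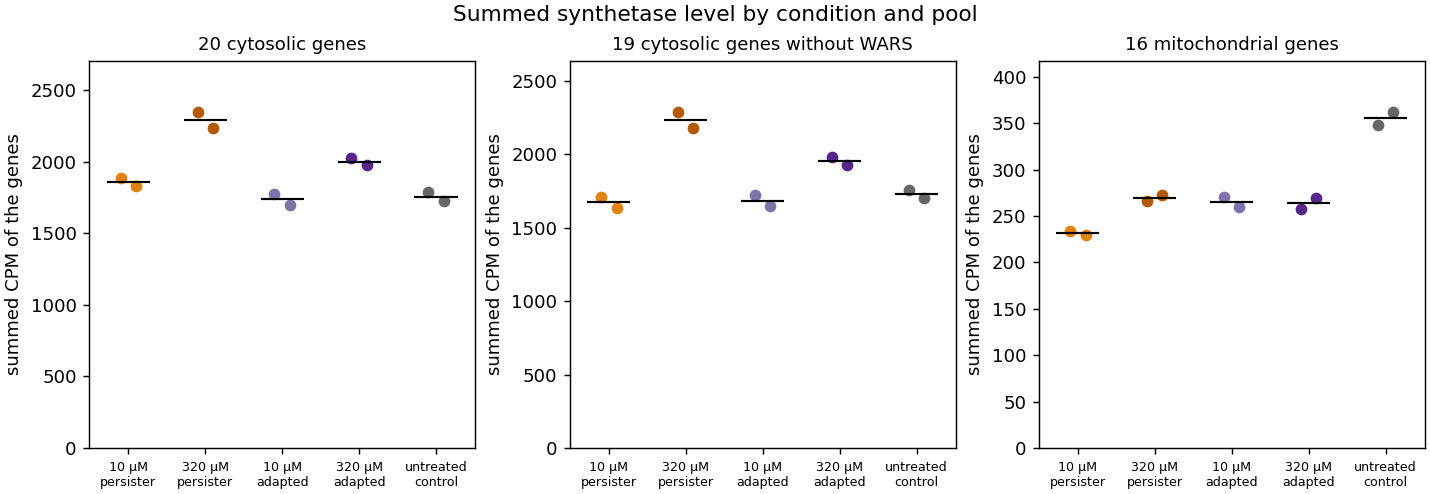
Summed CPM of the 20 cytosolic genes, the 19 cytosolic genes without WARS and the 16 mitochondrial genes, by condition, with 1 point for each pool and a line at the mean of 2 pools. The mitochondrial sums of all treated conditions, 229 to 272 CPM, lie below the control sums of 349 and 363 CPM.

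Against control, more mitochondrial genes were called lower than higher in each treated condition, with a share close to that of all genes in 320 µM adapted cells. In 10 µM persister cells 0 of the 16 were higher and 9 lower, with a median log2 change of -0.59, while 8 of the 20 cytosolic genes were higher and 7 lower, with a median of -0.02. Over all genes tested, 27.3% were called higher and 29.3% lower in that comparison. In 320 µM persister cells 1 mitochondrial gene was higher and 8 lower (median -0.40), and 11 cytosolic genes were higher and 4 lower (median 0.31), against 26.3% of all genes higher and 28.3% lower. In 10 µM adapted cells 0 mitochondrial genes were higher and 8 lower (median -0.38), and 7 cytosolic genes were higher and 4 lower (median 0.01), against 33.7% and 33.4% of all genes. In 320 µM adapted cells 0 mitochondrial genes were higher and 7 lower (median -0.15), and 16 cytosolic genes were higher and 3 lower (median 0.32), against 37.6% and 36.9% of all genes. The median over all genes was between -0.03 and 0.01 in these comparisons, which share the control sums. Scaling to library totals alone, which shifted the median of all genes by -0.23 in the 320 µM adapted comparison, left 9 members higher and 11 mitochondrial genes lower there in place of 16 and 7, with 46.8% of all genes lower and 37.4% of called genes higher in place of 50.5%. It shifted the median by 0.12 for 10 µM persister cells, with 1 mitochondrial gene higher and 6 lower, and gave 12 lower in 10 µM adapted cells. Under that scaling 32.6% of all genes were higher and 24.1% lower in 10 µM persister cells, and 37.4% lower in 10 µM adapted cells. Without pool 2 of 10 µM adapted cells 5 mitochondrial genes were lower there in place of 8, and without either pool of 320 µM persister cells or control pool 1, 2 cytosolic genes were lower in 320 µM persister cells in place of 4. With the pool as a block, 11 mitochondrial genes were lower in 320 µM persister cells, against 30.1% of all genes.

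**Figure D2:**
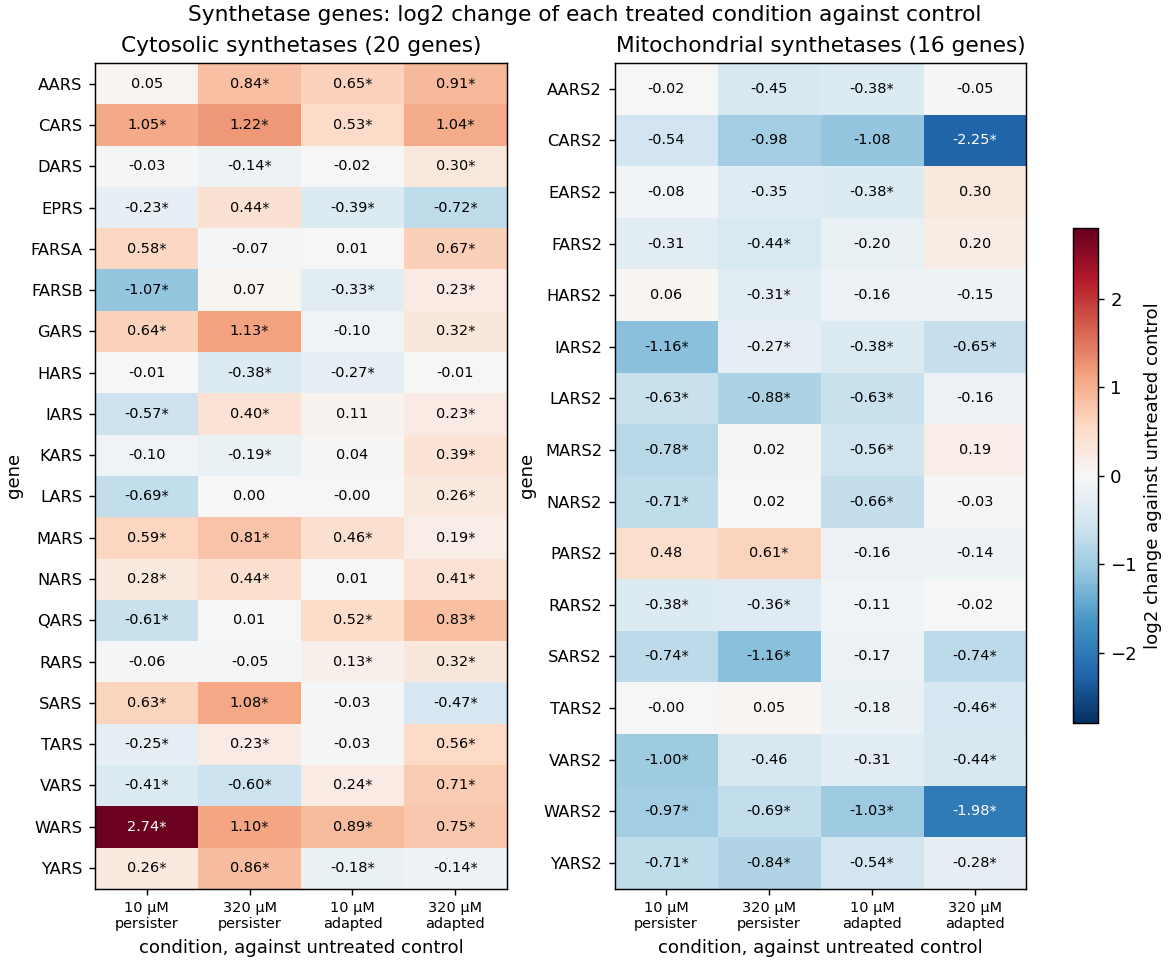
Log2 change of each synthetase gene in each treated condition (columns) against untreated control, cytosolic genes left and mitochondrial genes right, with red for higher and blue for lower. A star marks an edgeR adjusted p under 0.05. WARS in 10 µM persister cells, at 2.74, is the strongest rise, and the mitochondrial genes are mostly blue, with PARS2 at 0.61 in 320 µM persister cells as its only starred rise.

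WARS had the strongest rise of any synthetase gene against control. It stood at 177 and 196 CPM in 10 µM persister, 60.9 and 59.6 in 320 µM persister, 56.0 and 48.2 in 10 µM adapted and 47.4 and 46.7 in 320 µM adapted cells, against 28.7 and 27.4 CPM in control cells. All treated sums lay above both control sums, and those of 10 µM persister cells lay far above the rest. The log2 changes were 2.74 ± 0.07 (SE; adjusted p 1.49e-23), 1.10 ± 0.08 (2.83e-13), 0.89 ± 0.07 (4.82e-12) and 0.75 ± 0.07 (1.54e-10) in the same order, and a log2 change of 2.74 is 6.67-fold. The WARS gene is on chromosome 14, 100333788 to 100376805, on the minus strand (GENCODE 29, GRCh38), where it overlaps WDR25 on the other strand. Whether the counting used strand is not given in the sources used here, and the part of overlapping genes in the counts was not tested.

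Genes of the interferon-gamma type rose beside WARS in 10 µM persister cells. All 9 listed genes were higher there, with a median log2 change of 4.05, among them PSMB9, an immunoproteasome subunit, at 401 ± 36.6 CPM against 15.4 ± 0.742 in control cells (SD, n = 2 each). In 320 µM persister, 10 µM adapted and 320 µM adapted cells 2 of the 9 were higher and 4 lower in each. Of all genes, 27.3% were called higher in 10 µM persister cells. In the other treated conditions, in that order, 26.3, 33.7 and 37.6% were higher and 28.3, 33.4 and 36.9% lower. CXCL10, an interferon-induced chemokine of that list, was used to split the 10 µM persister cells, a split chosen after the data were seen. WARS had 228 and 277 UMIs per 1000000 in cells with a CXCL10 UMI, against 171 and 162 in cells without one. Cells with a CXCL10 UMI were deeper, at a median of 13467.5 and 16985.5 UMIs against 11285.5 and 13210, and no test was made. CD14, 1 of 4 leukocyte markers, was also higher in 10 µM persister cells, at 9.16 ± 3.1 CPM against 0.217 ± 0.0676 in control cells. The 4 leukocyte markers together held 31 to 45 UMIs per 10 µM persister sum and 7 to 9 per control sum. Per 1000000 UMIs this was 8.28 to 12.7 and 0.302 to 0.404. CD14 gave 44 and 29 of the UMIs in the 10 µM persister sums, and PTPRC, which marks all leukocytes, 1 and 2.

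Promoter sequences from RefSeq on GRCh38.p14, 250 bases before to 50 after a transcript start, were found for 30 of the 36 genes. The 3 printed here are those whose letters bear on the members above and below. They are the WARS start that holds both interferon motifs, and the GARS and TARS starts that hold the searched form of the ATF4 motif. Capitals mark the matched motif, and each sequence is read on the strand of its gene. The WARS start lies at chr14:100375298-100375597 (minus strand), the GARS start at chr7:30594628-30594927 (plus strand) and the TARS start at chr5:33440715-33441014 (plus strand).
WARS: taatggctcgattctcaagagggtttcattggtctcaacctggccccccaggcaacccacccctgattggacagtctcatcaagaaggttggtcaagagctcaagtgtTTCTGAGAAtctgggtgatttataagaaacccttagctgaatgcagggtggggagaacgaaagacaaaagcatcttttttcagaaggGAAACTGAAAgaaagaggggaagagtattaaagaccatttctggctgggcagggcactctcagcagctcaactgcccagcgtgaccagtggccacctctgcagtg
GARS: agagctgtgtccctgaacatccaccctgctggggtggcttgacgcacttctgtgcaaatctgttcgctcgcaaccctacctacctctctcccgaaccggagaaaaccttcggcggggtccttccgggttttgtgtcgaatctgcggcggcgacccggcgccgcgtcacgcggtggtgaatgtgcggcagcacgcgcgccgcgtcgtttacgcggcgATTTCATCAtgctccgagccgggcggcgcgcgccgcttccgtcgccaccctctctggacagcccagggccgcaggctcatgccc
TARS: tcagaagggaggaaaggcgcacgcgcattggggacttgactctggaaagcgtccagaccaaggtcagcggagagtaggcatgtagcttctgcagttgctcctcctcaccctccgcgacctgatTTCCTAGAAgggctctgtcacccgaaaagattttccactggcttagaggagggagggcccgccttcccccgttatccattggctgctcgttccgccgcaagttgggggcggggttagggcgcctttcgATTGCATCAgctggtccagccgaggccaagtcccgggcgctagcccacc
In WARS the GAS letters (TTCNNNGAA, an interferon-gamma motif) begin 142 bases before the start and the ISRE letters (GAAANNGAAA, an interferon-stimulated response element) 55 bases before it. The other WARS start in the table, at chr14:100376278-100376577, held none of the motifs searched. In GARS and TARS the letters TGATGNAAT, a form of the ATF4 motif named CARE, stand on the other strand, 34 bases before and 2 bases after the start. The printed TARS start also holds a GAS match. The other GARS start, at chr7:30594485-30594784, held none of the motifs searched. The other TARS start, at chr5:33440446-33440745, held GAS letters and no CARE letters. Both strands were searched. CARE letters of that form were in 2 of the 30 members, against 1.22% of 27305 genes. GAS letters were in 5 of 30 against 9.38%, and ISRE in 2 of 30 against 4.38%. Over the 35116 promoters, the shares were 0.991%, 7.66% and 3.57%. Only CARE letters ending in T were searched. The letters TGATGCAAC, on either strand, also stand in starts of AARS, CARS, IARS, MARS and NARS. Their share over all genes was not counted. A match is a run of letters and says nothing of binding.

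Other cytosolic genes of enzymes outside the complex also rose in persister cells. CARS, the cysteinyl enzyme, had 54.4 and 58.4 CPM in 10 µM persister, 63.1 and 64.0 in 320 µM persister, 38.6 and 40.1 in 10 µM adapted and 56.3 and 55.7 in 320 µM adapted cells, against 27.0 and 27.5 CPM in control cells. No treated sum overlapped control, and the log2 changes were 1.05 ± 0.08, 1.22 ± 0.07, 0.53 ± 0.07 and 1.04 ± 0.06, with adjusted p of 2.61e-12, 3.12e-15, 5.86e-08 and 8.48e-15. GARS, the glycyl enzyme of cytosol and mitochondria, had 146 and 147 CPM in 10 µM persister, 215 and 195 in 320 µM persister, 87.7 and 87.9 in 10 µM adapted and 121 and 113 in 320 µM adapted cells, against 96.5 and 91.3 CPM in control cells. It rose in both persister conditions (0.64 ± 0.06 and 1.13 ± 0.05) and less in 320 µM adapted cells (0.32 ± 0.05, adjusted p 5.15e-06). In 10 µM adapted cells its change was -0.10 (adjusted p 0.123), with an adjusted p of 0.0417 when the pool was a block. The 320 µM adapted call was lost under library totals alone, where the change was 0.09.

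SARS, the seryl enzyme, was high in persister cells and low in 320 µM adapted cells. It had 136 and 135 CPM in 10 µM persister, 186 and 184 in 320 µM persister, 86.5 and 85.1 in 10 µM adapted and 62.6 and 63.5 in 320 µM adapted cells, against 86.7 and 88.4 CPM in control cells. The changes were 0.63 ± 0.06 and 1.08 ± 0.05 in persister cells, -0.03 in 10 µM adapted cells (not called) and -0.47 ± 0.05 in 320 µM adapted cells (adjusted p 2.03e-09). YARS, the tyrosyl enzyme, had 102 and 94.7, 151 and 145, 76.1 and 68.4, and 76.6 and 71.9 CPM in the treated conditions in the order above, against 84.0 and 79.7 CPM in control cells. It rose in both persister conditions (0.26 ± 0.07 and 0.86 ± 0.06), and both adapted conditions lay below control (-0.18 and -0.14), calls that were lost in 6 and 5 alternatives. Without pool 2 of the adapted cells these values were -0.10 and -0.09, without control pool 1 they were -0.14 and -0.10, and the first was 0.05 in cells of the deposited G1 table. AARS, the alanyl enzyme, had 31.7 and 26.7 CPM in 10 µM persister cells, 51.6 and 49.4 in 320 µM persister, 42.4 and 46.0 in 10 µM adapted and 50.8 and 55.2 in 320 µM adapted cells, against 28.1 and 28.1 CPM in control cells. Only the 10 µM persister sums of AARS overlapped control (0.05, adjusted p 0.704), and the other changes were 0.84 ± 0.08, 0.65 ± 0.07 and 0.91 ± 0.07.

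The 2 subunits of the phenylalanyl enzyme parted in 10 µM persister cells. FARSA, the catalytic alpha subunit, had 49.0 and 41.3 CPM there against 29.5 and 30.6 in control, a change of 0.58 ± 0.11 (adjusted p 3.61e-05). FARSB, the beta subunit, had 15.5 and 16.1 CPM against 32.6 and 33.8 in control, a change of -1.07 ± 0.11 (adjusted p 2.61e-09). In 320 µM adapted cells both were higher, FARSA at 48.6 and 47.3 CPM (0.67 ± 0.08) and FARSB at 38.0 and 40.1 CPM (0.23 ± 0.07, lost under library totals alone at 0.01 and without pool 2 of 320 µM adapted cells at 0.20). In 320 µM persister cells the changes were -0.07 and 0.07 and not called, and in 10 µM adapted cells they were 0.01 (not called) for FARSA and -0.33 ± 0.07 for FARSB.

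VARS, the valyl enzyme, was low in persister and high in adapted cells. It had 23.2 and 21.9 CPM in 10 µM persister, 19.6 and 19.9 in 320 µM persister, 34.9 and 35.5 in 10 µM adapted and 47.2 and 50.6 in 320 µM adapted cells, against 29.2 and 30.6 CPM in control cells. The changes were -0.41 ± 0.10, -0.60 ± 0.09, 0.24 ± 0.07 and 0.71 ± 0.07, and the 10 µM adapted call was lost without control pool 1 (0.20, adjusted p 0.0614). NARS, the asparaginyl enzyme, rose by 0.28 in 10 µM persister cells, by 0.44 in 320 µM persister cells and by 0.41 in 320 µM adapted cells, with 0.01 in 10 µM adapted cells (not called), and its first call was lost without pool 2 of 10 µM persister cells (0.26, adjusted p 0.065). TARS, the threonyl enzyme, changed by -0.25 ± 0.06 in 10 µM persister, 0.23 ± 0.06 in 320 µM persister cells and 0.56 ± 0.05 in 320 µM adapted cells, and had -0.03 (not called) in 10 µM adapted cells. Its 10 µM persister call was lost under library totals alone (-0.13) and in cells of the G1 table (-0.07). HARS, the histidyl enzyme, fell by 0.38 in 320 µM persister cells and by 0.27 in 10 µM adapted cells, and had -0.01 in the other 2 treated conditions. HARS overlaps HARS2 on the other strand.

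**Figure D3:**
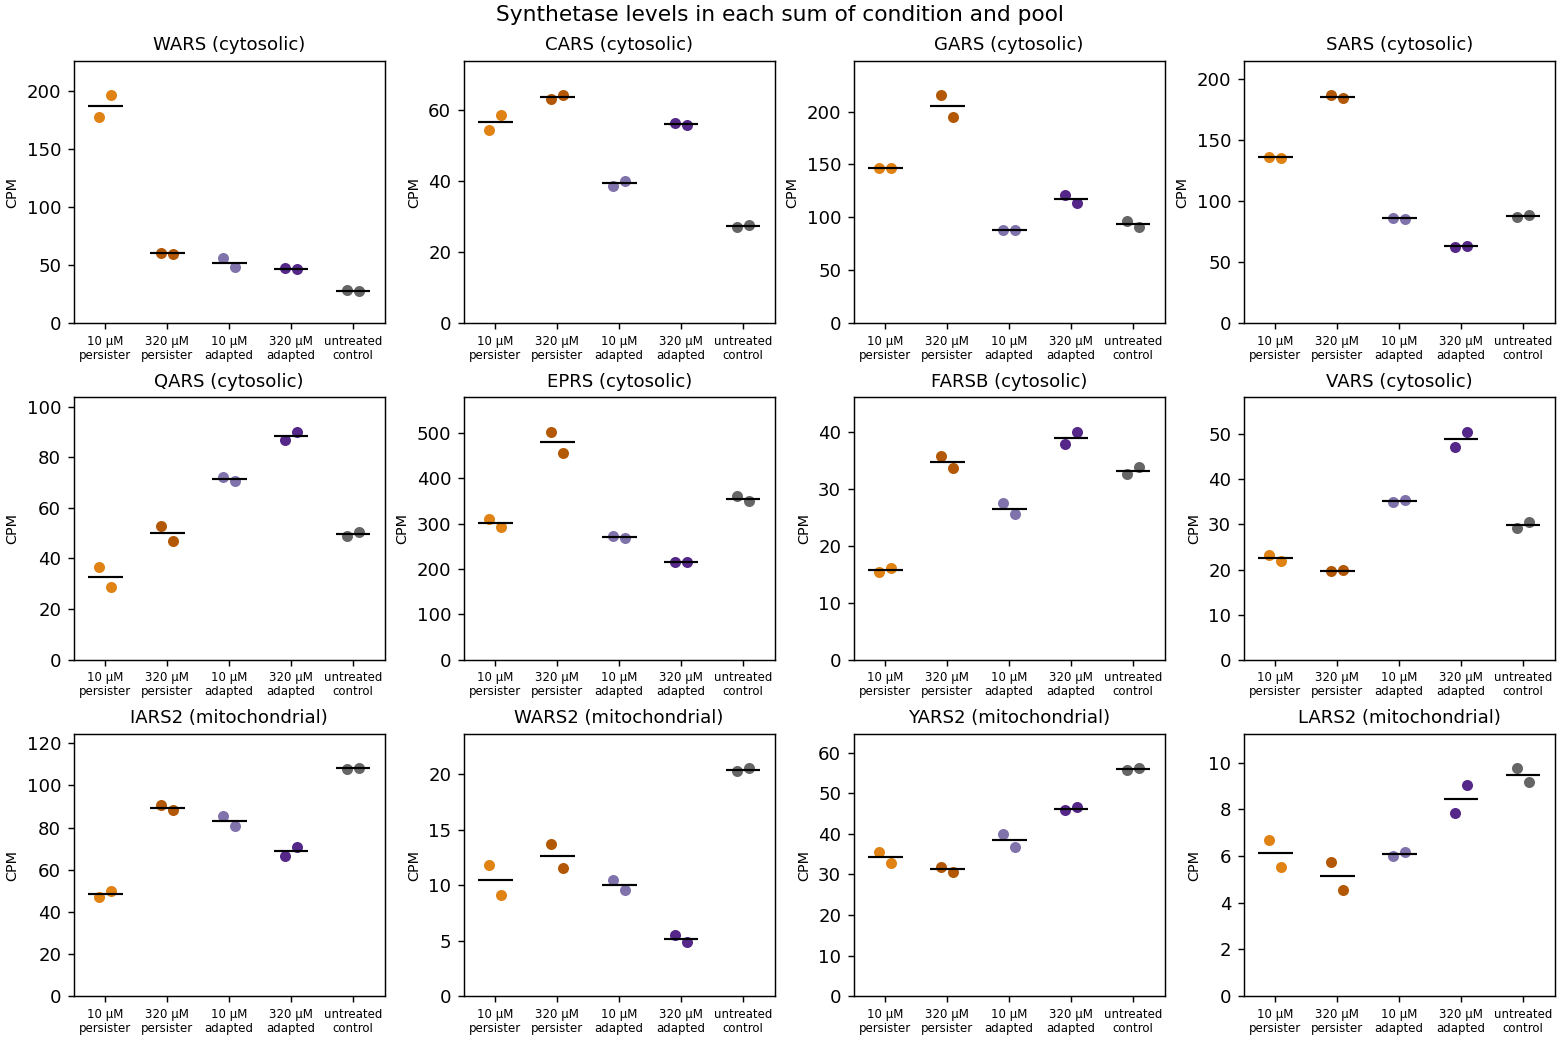
CPM of 12 synthetase genes in each sum, 1 point for each pool and a line at the mean of 2 pools, with the genes drawn chosen after their values were seen. WARS is highest in 10 µM persister cells (177 and 196 CPM), SARS and GARS in 320 µM persister cells, and IARS2, WARS2 and YARS2 are highest in control cells.

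The multisynthetase complex was described by counts alone, and its difference from other genes was not tested. Of the 8 listed enzymes known to sit in it, a textbook grouping added after the results were seen, 1 was higher and 4 lower in 10 µM persister cells, 3 higher and 2 lower in 320 µM persister cells, 3 higher and 1 lower in 10 µM adapted cells, and 7 higher and 1 lower in 320 µM adapted cells, all against control. Of the 12 other cytosolic genes, 7 were higher and 3 lower in 10 µM persister, 8 and 2 in 320 µM persister, 4 and 3 in 10 µM adapted and 9 and 2 in 320 µM adapted cells. Of all genes, 27.3% were higher and 29.3% lower in 10 µM persister cells, and 26.3% and 28.3% in 320 µM persister cells. The shares were 33.7% and 33.4% in 10 µM adapted cells, and 37.6% and 36.9% in 320 µM adapted cells. In 320 µM adapted cells the calls of DARS, RARS, IARS, LARS and MARS were lost under library totals alone. QARS, the glutaminyl enzyme, had 36.6 and 28.6 CPM in 10 µM persister, 52.9 and 47.0 in 320 µM persister, 72.3 and 70.6 in 10 µM adapted and 86.9 and 90.1 in 320 µM adapted cells, against 48.9 and 50.5 CPM in control cells. It fell in 10 µM persister cells (-0.61 ± 0.09), had 0.01 in 320 µM persister cells, whose sums overlapped control, and rose in both adapted conditions (0.52 ± 0.07 and 0.83 ± 0.06). EPRS, which charges glutamate and proline with 1 protein, had 311 and 292 CPM in 10 µM persister, 502 and 456 in 320 µM persister, 273 and 268 in 10 µM adapted and 215 and 215 in 320 µM adapted cells, against 360 and 349 CPM in control cells. Its changes were -0.23 ± 0.05, 0.44 ± 0.05, -0.39 ± 0.05 and -0.72 ± 0.05, so that EPRS was the complex member lower in 320 µM adapted cells. In cells of the deposited G1 table alone the 10 µM persister change of EPRS was -0.12 (adjusted p 0.0701).

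IARS, the isoleucyl enzyme, and LARS, the leucyl enzyme, fell in 10 µM persister cells. IARS had 52.1 and 52.9 CPM there, 107 and 99.2 in 320 µM persister, 85.0 and 83.4 in 10 µM adapted and 93.1 and 90.7 in 320 µM adapted cells, against 80.5 and 75.9 CPM in control cells. Its changes were -0.57 ± 0.07, 0.40 ± 0.06, 0.11 (not called, adjusted p 0.0892, and adjusted p 0.0257 with the pool as a block) and 0.23 ± 0.05. LARS had 130 and 119, 210 and 193, 213 and 189, and 254 and 229 CPM in the treated conditions in the order above, against 209 and 193 CPM in control cells. The LARS changes were -0.69 ± 0.08 in 10 µM persister cells and 0.26 ± 0.06 in 320 µM adapted cells, and the sums of the other 2 conditions overlapped control. Under library totals alone the 320 µM adapted changes were 0.01 for IARS and 0.04 for LARS, and neither was called.

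MARS, the methionyl enzyme, was the complex member that rose in 10 µM persister cells. It had 41.0 and 44.0 CPM there, 48.8 and 49.9 in 320 µM persister, 41.1 and 36.4 in 10 µM adapted and 32.4 and 31.9 in 320 µM adapted cells, against 27.8 and 28.7 CPM in control cells. The changes were 0.59 ± 0.09, 0.81 ± 0.08, 0.46 ± 0.07 and 0.19 ± 0.07, and the last was lost when any 1 of the compared sums was left out (0.16 to 0.21) and was -0.04 under library totals alone. MARS overlaps DDIT3, a stress-induced transcription factor gene on the other strand, whose log2 changes were 2.40, 1.79, 0.80 and 2.01 in the same order. KARS, the lysyl enzyme of cytosol and mitochondria, had 39.2 and 44.4 CPM in 10 µM persister, 38.9 and 39.8 in 320 µM persister, 46.6 and 45.7 in 10 µM adapted and 59.6 and 58.0 in 320 µM adapted cells, against 46.2 and 43.4 CPM in control cells. It rose in 320 µM adapted cells (0.39 ± 0.06, adjusted p 2.43e-06). Its change of -0.19 in 320 µM persister cells was lost in 7 alternatives, among them those without pool 1 (-0.16) or pool 2 (-0.19) of these cells and without control pool 1 (-0.13), and the other changes were -0.10 and 0.04.

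DARS and RARS, the aspartyl and arginyl enzymes, changed least among the complex members. DARS rose by 0.30 and RARS by 0.32 in 320 µM adapted cells, which under library totals alone were 0.07 and 0.10 and not called. In 320 µM persister cells DARS changed by -0.14, a call lost in 8 alternatives, including without either pool of these cells (-0.09 and -0.16) or without control pool 1 (-0.08), and RARS had -0.05 (not called). In 10 µM adapted cells RARS rose by 0.13, which was lost without any 1 of the compared sums (0.12 to 0.13), and DARS had -0.02. In 10 µM persister cells DARS had -0.03 and RARS -0.06, neither called.

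Of the genes that serve beside the cytosolic enzymes, XPOT, which exports transfer RNA from the nucleus, had 25.3 ± 1.79 CPM in 10 µM persister, 35.6 ± 0.796 in 320 µM persister, 29.5 ± 0.0413 in 10 µM adapted and 44.9 ± 0.654 in 320 µM adapted cells, against 20.8 ± 0.152 CPM in control cells (SD, n = 2 each). Its changes were 0.28, 0.77, 0.50 and 1.11, all called. AIMP1 and AIMP2, scaffold proteins of the complex, rose by 0.66 and 0.41 in 320 µM adapted cells, while AIMP2 fell by 0.61 in 10 µM adapted cells. Of 23 ATF4 targets that are no synthetases, 18 were higher and 4 lower in 10 µM persister, 21 and 1 in 320 µM persister, 14 and 7 in 10 µM adapted and 18 and 3 in 320 µM adapted cells, with medians of 1.08, 1.47, 0.51 and 1.14. In the same order, 27.3, 26.3, 33.7 and 37.6% of all genes were higher. The shares of all genes that were lower were 29.3, 28.3, 33.4 and 36.9%. The lower ATF4 targets in 10 µM adapted cells, 30.4% of the list, lay near the share of all genes. TRIB3, a pseudokinase induced by ATF4, rose by 3.26 in 320 µM persister, 2.36 in 10 µM adapted and 2.78 in 320 µM adapted cells, and DDIT4, an inhibitor of mTORC1, by 1.85, 2.51, 2.16 and 3.87 in the 4 treated conditions. In 10 µM persister cells TRIB3 had 20.6 CPM, against 5.20 in control cells. PHGDH, also on that list, had 104 CPM in 10 µM persister, 103 in 10 µM adapted and 61.5 in 320 µM adapted cells, below 154 in control cells. It had 258 CPM in 320 µM persister cells. The 4 tested elongation factors of 5 listed were all lower in 10 µM persister cells (median -0.91) and all higher in 10 µM and 320 µM adapted cells (medians 0.29 and 0.50), with 1 higher and 2 lower in 320 µM persister cells.

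Among mitochondrial genes, WARS2, YARS2 and IARS2 were lower than control in each treated condition. WARS2, the tryptophanyl enzyme, had 11.9 and 9.13 CPM in 10 µM persister, 13.8 and 11.5 in 320 µM persister, 10.4 and 9.60 in 10 µM adapted and 5.51 and 4.88 in 320 µM adapted cells, against 20.3 and 20.6 CPM in control cells. No treated sum reached control, and the changes were -0.97 ± 0.15, -0.69 ± 0.12, -1.03 ± 0.11 and -1.98 ± 0.12, with adjusted p of 3.48e-06, 8.99e-06, 1.01e-09 and 3.61e-15. IARS2, the isoleucyl enzyme, had 46.9 and 49.7, 90.6 and 88.5, 85.5 and 80.7, and 66.6 and 71.0 CPM in the same order, against 108 and 108 CPM in control cells. The IARS2 changes were -1.16 ± 0.07, -0.27 ± 0.06, -0.38 ± 0.05 and -0.65 ± 0.05. WARS2 and IARS2 thus differed in where they were lowest, which was 320 µM adapted cells for WARS2 and 10 µM persister cells for IARS2. YARS2, the tyrosyl enzyme, had 35.6 and 32.9 CPM in 10 µM persister, 31.8 and 30.7 in 320 µM persister, 40.1 and 36.8 in 10 µM adapted and 45.9 and 46.6 in 320 µM adapted cells, against 55.8 and 56.2 CPM in control cells. Its changes were -0.71 ± 0.09, -0.84 ± 0.07, -0.54 ± 0.07 and -0.28 ± 0.06, of which the last was not called in thinned sums or in cells of the G1 table.

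LARS2, the leucyl enzyme, had 6.71 and 5.53 CPM in 10 µM persister, 5.73 and 4.54 in 320 µM persister, 6.01 and 6.19 in 10 µM adapted and 7.83 and 9.06 in 320 µM adapted cells, against 9.77 and 9.16 CPM in control cells. It fell in the first 3 (-0.63 ± 0.20, -0.88 ± 0.16 and -0.63 ± 0.13) and had -0.16 (adjusted p 0.237) in 320 µM adapted cells, and the 10 µM persister call was lost without pool 2 of these cells (-0.50, adjusted p 0.132). SARS2, the seryl enzyme, had 4.64 and 2.40 CPM in 10 µM persister, 2.64 and 2.56 in 320 µM persister, 5.62 and 4.71 in 10 µM adapted and 2.63 and 4.30 in 320 µM adapted cells, against 5.62 and 6.02 CPM in control cells. Its changes were -0.74, -1.16, -0.17 (not called) and -0.74, and the 10 µM persister call rested on 18 and 10 UMIs and was lost without pool 2 of these cells (-0.33) or control pool 2 (-0.69). The 320 µM adapted call of SARS2 was lost without pool 1 of these cells (-0.44, adjusted p 0.0649). SARS2 also overlaps AC011455.2 on its own strand and MRPS12, a mitochondrial ribosomal protein gene, on the other strand.

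In 10 µM persister cells NARS2, VARS2, MARS2 and RARS2 were lower too. NARS2, the asparaginyl enzyme, had 11.6 and 10.6 CPM there and 11.8 and 11.1 in 10 µM adapted cells, against 18.6 and 17.5 CPM in control cells (-0.71 ± 0.15 and -0.66 ± 0.10). At 320 µM, in persister as in adapted cells, its sums overlapped control. VARS2, the valyl enzyme, had 2.32 and 2.64 CPM in 10 µM persister cells, from 9 and 11 UMIs, against 4.64 and 5.34 in control (-1.0 ± 0.29), and the call was lost without pool 1 of 10 µM persister cells (-0.91, adjusted p 0.0574). Its change of -0.44 in 320 µM adapted cells was lost without pool 2 of these cells (-0.38) or control pool 2 (-0.34) and was 0.09 in cells of the G1 table, and in 320 µM persister cells it was -0.46 (adjusted p 0.0567, and adjusted p 0.0499 with the pool as a block). MARS2, the methionyl enzyme, changed by -0.78 in 10 µM persister cells and -0.56 in 10 µM adapted cells, and these calls were lost in 8 and 5 alternatives, among them without pool 1 of 10 µM persister cells (-0.44), without pool 2 of 10 µM adapted cells (-0.44) and without control pool 2 (-0.65 and -0.44). RARS2, the arginyl enzyme, fell by 0.38 in 10 µM persister and by 0.36 in 320 µM persister cells. Both calls were lost without pool 2 of the persister cells (-0.33 and -0.28). VARS2 overlaps GTF2H4 on its own strand.

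CARS2, the mitochondrial cysteinyl enzyme, differed most between pools. It had 12.4 and 19.9 CPM in 10 µM persister, 7.68 and 16.4 in 320 µM persister, 8.42 and 14.0 in 10 µM adapted and 4.38 and 5.52 in 320 µM adapted cells, against 18.1 and 29.1 CPM in control cells. Pool 2 was the higher pool in every condition. The changes were -0.54, -0.98, -1.08 and -2.25, of which the 320 µM adapted one was called (adjusted p 0.00691). With the pool as a block all 4 were called, with adjusted p of 0.000331, 8.16e-12 and 2.36e-16 for the 3 that were not called without it. CARS2 overlaps ING1, a chromatin regulator gene, on the other strand.

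PARS2, the prolyl enzyme, was the 1 mitochondrial gene higher than control in any condition. It had 6.96 and 6.97 CPM in 10 µM persister, 6.65 and 8.62 in 320 µM persister, 3.72 and 5.16 in 10 µM adapted and 5.07 and 4.01 in 320 µM adapted cells, against 5.26 and 4.71 CPM in control cells. The rise in 320 µM persister cells was 0.61 ± 0.18 (adjusted p 0.00534), and it was lost without pool 2 of these cells (0.43, adjusted p 0.153). In 10 µM persister cells the sums lay above control as well, at 0.48 ± 0.24 (adjusted p 0.0852). AARS2, EARS2, FARS2, HARS2 and TARS2, of the alanyl, glutamyl, phenylalanyl, histidyl and threonyl enzymes, had changes between -0.46 and 0.30 over all 4 conditions. TARS2 fell by 0.46 in 320 µM adapted cells, FARS2 by 0.44 in 320 µM persister cells, HARS2 by 0.31 in 320 µM persister cells, and AARS2 and EARS2 by 0.38 each in 10 µM adapted cells. The HARS2 call was lost without any 1 of the compared sums (-0.25 to -0.36). HARS2 overlaps ZMAT2 on its own strand and HARS on the other strand. The FARS2 call was lost without pool 2 of 320 µM persister cells (-0.32), the AARS2 call without pool 1 or 2 of 10 µM adapted cells (-0.39 and -0.38) or control pool 2 (-0.16), and the EARS2 call without the same sums (-0.45, -0.32 and -0.26). With the pool as a block, 2 mitochondrial genes, EARS2 (0.30) and FARS2 (0.20), were called higher in 320 µM adapted cells, and AARS2 (-0.45) was called lower in 320 µM persister cells.

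Other genes of mitochondrial translation were mixed. Of 12 translation factors and amidotransferase subunits, 2 were higher and 5 lower in 10 µM persister, 5 and 3 in 320 µM persister, 0 and 7 in 10 µM adapted and 5 and 2 in 320 µM adapted cells. In the same order, 27.3, 26.3, 33.7 and 37.6% of all genes were higher and 29.3, 28.3, 33.4 and 36.9% lower. Some of the counts were near these shares, such as 41.7% of the 12 higher in 320 µM adapted and 25% lower in 320 µM persister cells. GFM1, an elongation factor of mitochondria, had 33.2 ± 0.625 CPM in 10 µM persister, 40.4 ± 2.83 in 320 µM persister, 30.3 ± 1.65 in 10 µM adapted and 23.5 ± 1.13 in 320 µM adapted cells, against 46.0 ± 0.943 CPM in control cells (SD, n = 2 each). Of 5 proliferation genes, to be set against the same shares of all genes, all were lower in both persister conditions. In 10 µM adapted cells 4 were lower, and in 320 µM adapted cells 1 was higher and 3 lower. MKI67, a marker of cycling cells, had 34.8 CPM in 10 µM persister, 47.5 in 320 µM persister, 101 in 10 µM adapted and 103 in 320 µM adapted cells, against 155 CPM in control cells. PCNA, a replication clamp, had 96.6 ± 2.10 CPM in 320 µM adapted cells, against 79.3 ± 2.46 CPM in control cells (SD, n = 2 each). Their part in the synthetase values was not tested. In the cells that the authors list in their G1 table, 0 mitochondrial synthetase genes were higher than control in any treated condition. There 7 were lower in 10 µM persister, 6 in 320 µM persister, 6 in 10 µM adapted and 5 in 320 µM adapted cells, against 25.9%, 23.6%, 27.9% and 33% of all genes tested in those cells.

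Set against persister cells of the same dose, adapted cells at 10 µM had 8 cytosolic genes higher and 9 lower, and 2 mitochondrial genes higher and 1 lower, while 31.4% of all genes were called higher and 29.3% lower. WARS was 1.84 lower in log2 (± 0.07, adjusted p 1.32e-19) and GARS 0.74, SARS 0.66 and CARS 0.52 lower in adapted cells, all without overlap. QARS was 1.14 ± 0.09 higher, and FARSB (0.75), LARS (0.69), IARS (0.68), VARS (0.64) and AARS (0.60) were higher too. Of the mitochondrial genes IARS2 was higher by 0.78 ± 0.07 in adapted cells, PARS2 differed by -0.65 and RARS2 by 0.27, and these last 2 calls were lost in 6 and 9 alternatives. Without pool 1 or 2 of 10 µM persister cells or pool 1 of 10 µM adapted cells they were -0.66, -0.65 and -0.44 for PARS2 and 0.32, 0.21 and 0.13 for RARS2. Of the 20 calls, 13 held in all 13 alternatives run. Library totals alone shifted the median of all genes by -0.19 and left 38.9% of called genes higher in place of 51.8%.

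At 320 µM, adapted cells had 9 cytosolic genes higher and 8 lower than persister cells, and 5 mitochondrial genes higher and 4 lower, against 34.1% and 32.6% of all genes. SARS (-1.56 ± 0.05, adjusted p 6.90e-21), EPRS (-1.15 ± 0.05), YARS (-1.0 ± 0.06) and GARS (-0.81 ± 0.05) were lower in adapted cells. VARS (1.31 ± 0.08), QARS (0.82 ± 0.07), FARSA (0.74 ± 0.09) and KARS (0.58 ± 0.07) were higher. Among mitochondrial genes WARS2 (-1.29 ± 0.15), PARS2 (-0.75), TARS2 (-0.51) and IARS2 (-0.38) were lower in adapted cells, and LARS2 (0.72 ± 0.17), EARS2 (0.65), FARS2 (0.64), YARS2 (0.57) and RARS2 (0.34) higher. The PARS2, EARS2 and RARS2 calls were lost without pool 2 of 320 µM persister cells (-0.57, 0.38 and 0.26). Under library totals alone, where the median of all genes moved by -0.28 and 33.6% of called genes were higher in place of 51.2%, 8 members were higher in place of 14.

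Between doses, 320 µM persister cells had 10 cytosolic genes higher and 3 lower than 10 µM persister cells, and 2 mitochondrial genes higher and 0 lower, against 25.3% and 24.4% of all genes. FARSB (1.14 ± 0.12), IARS (0.97 ± 0.07), AARS (0.79 ± 0.10), LARS (0.69 ± 0.08) and EPRS (0.67 ± 0.05) were higher at 320 µM, and WARS (-1.63 ± 0.07, adjusted p 1.10e-17), FARSA (-0.65 ± 0.12) and HARS (-0.37 ± 0.08) lower. IARS2 (0.89 ± 0.08) and NARS2 (0.73 ± 0.16) were the mitochondrial genes higher at 320 µM. All 15 of these calls held in the 13 alternatives run, and under library totals alone 5 members were lower in place of 3.

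In 320 µM adapted against 10 µM adapted cells, 15 cytosolic genes were higher and 3 lower, and 6 mitochondrial genes higher and 4 lower, against 33.4% and 32.4% of all genes. FARSA (0.67 ± 0.08), TARS (0.59 ± 0.05), FARSB (0.56 ± 0.07), CARS (0.51 ± 0.06), VARS (0.48 ± 0.07) and GARS (0.42 ± 0.06) were higher at 320 µM, and SARS (-0.44 ± 0.05), EPRS (-0.33 ± 0.05) and MARS (-0.27 ± 0.07) lower. WARS had -0.15 (adjusted p 0.0654), with an adjusted p of 0.0270 when the pool was a block. Among mitochondrial genes MARS2 (0.75 ± 0.20), EARS2 (0.68), NARS2 (0.62), LARS2 (0.47), FARS2 (0.41) and YARS2 (0.27) were higher at 320 µM, and WARS2 (-0.95 ± 0.14), SARS2 (-0.56), TARS2 (-0.28) and IARS2 (-0.27) lower. Without pool 1 of 10 µM adapted cells 4 members were lower in place of 7, since MARS (-0.17), SARS2 (-0.43) and TARS2 (-0.25) were no longer called. The LARS2 and TARS2 calls were also lost without pool 2 of 320 µM adapted cells (0.37 and -0.20), TARS2 without pool 2 of 10 µM adapted cells (-0.30) and SARS2 without pool 1 of 320 µM adapted cells (-0.26). Library totals alone shifted the median of all genes by -0.16 and left 37.5% of called genes higher in place of 50.8%.

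Fibroblast marker genes were higher in 10 µM adapted cells. All 4 were called higher than control there, as were 33.7% of all genes. Cells with a UMI of any of these markers made up 24.5 and 27.1% of 10 µM adapted cells, against 0.986 and 1.35% of control cells. The 4 markers summed to 94.3 to 97.9 UMIs per 1000000 in 10 µM adapted cells, against 1.08 to 1.29 in control cells, most of them from COL1A1, a collagen gene (1434 and 1409 UMIs in 10 µM adapted cells, against 20 and 28 in control cells). Without the cells that had such a UMI, an alternative chosen after the data were seen, 8 cytosolic genes were higher and 3 lower than control. Of the mitochondrial genes, 0 were higher and 7 lower. Of all genes tested in that run, 33.1% were higher and 32.5% lower. The calls of YARS (-0.08) and EARS2 (-0.29) were lost.

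In single cells WARS was most often seen in 10 µM persister cells, and SARS and EPRS in 320 µM persister cells. Cells were thinned to 3000 UMIs, and shallower cells were left out, which were 27 and 25 in 10 µM persister, 15 and 20 in 320 µM persister, 35 and 21 in 10 µM adapted, 19 and 16 in 320 µM adapted and 11 and 18 in control cells. At that depth, a WARS UMI was seen in 38.1 and 39.9% of 10 µM persister, 17.2 and 16.2% of 320 µM persister, 14.6 and 11.8% of 10 µM adapted and 10.6 and 10.8% of 320 µM adapted cells, against 8.46 and 8.05% of control cells. The exact 95% intervals of the 10 µM persister shares, 32.3 to 44.1% and 33.6 to 46.4%, lay above those of all other sums. With all UMIs the WARS shares were 74.3 and 77.9% in 10 µM persister cells and 22.4 and 24.0% in control cells. For SARS the shares at 3000 UMIs were 32.2 and 34.9, 42.6 and 43.5, 21.3 and 19.8, and 14.9 and 15.1% in the same order, against 23.6 and 22.2% of control cells. For EPRS they were 54.9 and 52.1, 74.6 and 72.4, 48.6 and 48.2, and 39.7 and 39.2%, against 64.0 and 62.3% of control cells. QARS had 13.9 and 7.98% in 10 µM persister and 19 and 19.8% in 320 µM adapted cells, against 13.9 and 14.6% of control cells. Intervals cover counting error only, no cell type here lacks these genes, and the share that free RNA adds was not tested.

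**Figure D4:**
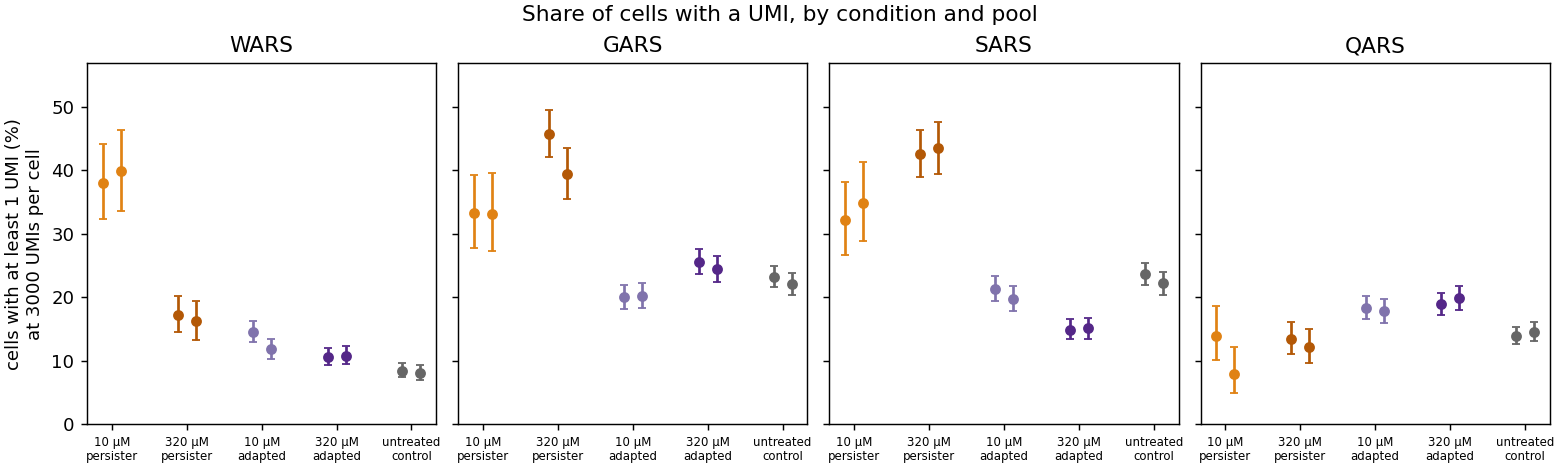
Share of cells with at least 1 UMI of WARS, GARS, SARS or QARS after thinning to 3000 UMIs and leaving out shallower cells, by condition and pool, with exact 95% binomial intervals as bars. WARS reaches 38.1 and 39.9% in 10 µM persister cells, against 8.46 and 8.05% of control cells.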

How the data were processed

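The authors deposited a table of UMI counts of 19893 genes in 13800 cells, in which each cell's name gives its condition and pool. The submitters' processing notes name Cell Ranger 3.1, Seurat and the GRCh38 build, with no role stated. A second deposited table lists 7762 cells as G1. Its UMI total equals that of the count table in 37 of them, and the count table holds between 100.0 and 105% of it. The 8 expression and 2 hashtag libraries are each a mix of conditions, and 13 barcodes occur in both pools.

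Counts were added up per condition and pool into 10 sums and fitted with edgeR 4.0.16 (R 4.3.3, limma 3.58.1): trimmed mean of M-values (TMM) scaling, filterByExpr, robust quasi-likelihood F-tests with 1 mean per condition, and Benjamini-Hochberg adjustment over 13330 genes. DESeq2 1.42.0, other scalings, cell subsets, the pool as a block and leaving out each sum were alternatives. The pool number comes from the cell names, and deviations of the same pool correlated between conditions at r of 0.287 to 0.496 across 4232 genes. The numbers thus pair the sums, but the reported values come from the fit without the block, and the blocked value is given where it changes a call. The labels do not state whether each pool was its own culture, and the p-values rest on pool-to-pool spread alone, possibly a technical one. Every member is named, and genes of other lists are given as examples. The plan was to draw them from the called genes with the lowest p in each list.

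The members and lists were chosen with earlier results of these data known. The split by CXCL10, the grouping by complex, the motifs, the genes drawn in the plots and the run without cells holding a fibroblast marker UMI were chosen after the data were seen. Doublets were not called here, and the sources used here do not say how they were treated before deposit. The fit was tested on data simulated for 10 µM persister against control cells. It missed many changed genes, and those missed at a simulated log2 change of 1 lay below 20 CPM, as most mitochondrial members do. The pass mark was then limited to genes of at least 20 CPM, so a member not called may still have changed.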

Additional observations from a re-analysis of the deposited data

Results flagged for a closer look

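Several cytosolic genes were called in opposite directions against control in a pair of conditions, with the direct difference between those conditions also called by edgeR. These comparisons share the control sums, and no value here was tested for a cause. With 2 sums per condition, no test of whether a single sum stands apart was run.

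Between adapted and persister cells at 320 µM, SARS differed by -1.56 ± 0.05 (SE), EPRS by -1.15 ± 0.05 and YARS by -1.0 ± 0.06, all lower than control in adapted and higher than control in persister cells. The YARS call against control in adapted cells (-0.14) was lost in 5 of 13 alternatives, among them without pool 2 of 320 µM adapted cells (-0.09) or control pool 1 (-0.10). VARS differed by 1.31 ± 0.08, KARS by 0.58 ± 0.07 and DARS by 0.43 ± 0.06, all higher than control in adapted and lower in persister cells. The persister calls of KARS (-0.19) and DARS (-0.14) were lost in 7 and 8 alternatives, including without pool 1 (-0.16 and -0.09) or pool 2 (-0.19 and -0.16) of 320 µM persister cells or control pool 1 (-0.13 and -0.08), and the adapted call of DARS under library totals alone (0.07). At 10 µM, QARS differed by 1.14 ± 0.09 and VARS by 0.64 ± 0.10, higher than control in adapted and lower in persister cells, and YARS by -0.44 ± 0.07, lower in adapted and higher in persister cells. The adapted calls of YARS (-0.18) and VARS (0.24) against control were lost without control pool 1 (-0.14 and 0.20), that of YARS also without pool 2 of 10 µM adapted cells (-0.10), and in cells of the G1 table YARS was 0.047.

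Between persister cells at 320 µM and 10 µM, IARS differed by 0.97 ± 0.07, EPRS by 0.67 ± 0.05 and TARS by 0.48 ± 0.06, all higher than control at 320 µM and lower at 10 µM. The 10 µM calls of TARS (-0.07) and EPRS (-0.12) were lost in cells of the G1 table, and that of TARS under library totals alone (-0.13). Between adapted cells at 320 µM and 10 µM, FARSB differed by 0.56 ± 0.07, higher than control at 320 µM and lower at 10 µM. The 320 µM call of FARSB was lost under library totals alone (0.0061) and without pool 2 of 320 µM adapted cells (0.20), and the 10 µM call in thinned sums (-0.25) and cells of the G1 table (-0.13).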

How the results depend on the processing

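Of 208 alternative values of the 16 counts of members called higher or lower, 202 lay within 1.5 times the reported count. In thinned sums, which hold fewer UMIs, 6 members were lower in place of 12 in 10 µM adapted cells and 6 in place of 10 in 320 µM adapted cells, both against control. Of all genes tested in that run, 22.8% were lower in place of 33.4% in 10 µM adapted cells. In 320 µM adapted cells it was 29.6% in place of 36.9%, so calls became fewer over all genes too. Under library totals alone 9 members were higher in place of 16 in 320 µM adapted cells against control, 8 in place of 14 in 320 µM adapted against persister cells, and 5 were lower in place of 3 in 320 µM against 10 µM persister cells. The shares of all genes called higher went from 37.6 to 28% and from 34.1 to 22.7% in the first comparisons. In the last, the share called lower went from 24.4 to 27.1%. Leaving out 1 sum gave 4 to 7 members lower in 320 µM against 10 µM adapted cells.

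Of 182 single calls, 115 held in all 13 alternatives, 67 were lost in some, and 7 changed sign in at least 1. Under library totals alone MARS was -0.039 in 320 µM adapted cells against control, RARS -0.00044 in 10 µM adapted against persister cells, LARS -0.021 in 320 µM adapted against persister cells and IARS -0.030 in 320 µM against 10 µM adapted cells. In cells of the G1 table YARS was 0.047 in 10 µM adapted and VARS2 0.087 in 320 µM adapted cells against control, and IARS was -0.074 in 320 µM against 10 µM adapted cells. In thinned sums CARS was 0.027 in 320 µM adapted against persister cells. The cause was not tested.

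With the pool as a replicate block, CARS2 was called in every comparison. The other calls the block added, with the log2 change, were GARS (-0.10) and IARS (0.11) in 10 µM adapted cells, EARS2 (0.30) and FARS2 (0.20) in 320 µM adapted cells, and AARS2 (-0.45) and VARS2 (-0.46) in 320 µM persister cells, all against control. It also added AARS2 and WARS between adapted doses, AARS2 and FARSB between 320 µM adapted and persister cells, and MARS2 between persister doses. Depth limits the 10 µM persister sums most.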
